A study of Mus musculus with 12 samples.

Results

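Cytochromes P450 and other enzymes of xenobiotic and oxidative metabolism were examined in MEF cells, fibroblasts from mouse embryos. The 10 genes were Cyp1a1, Cyp1b1, Cyp2f2, Cyp7b1, Aldh1a1, Aldh3a1, Aox1, Ephx1, Gstt1 and Vnn1, out of 46763 distinct names in the RNA-seq tables. They were selected on their measured changes in the comparisons reported here, so their values are given as a description, and how many of them the fit over all genes called is set beside the share of all genes called without being read as a result. All 10 were listed in both tables, of 43280 and 23930 entries. A mean of at least 1 RPM was reached by 7 of them in the table of mutant IDH2 and by 8 in the table of 2-HG.

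RNA-seq was carried out on 12 libraries, 3 in each of 4 groups, from MEF cells of C57BL/6 embryos at embryonic day 13.5 that had become immortal spontaneously on passage. 2MUT cells stably expressed FLAG-tagged human IDH2 with an arginine mutation after retroviral transduction, and Control cells had received the empty vector. Both were selected with puromycin, and whether they were pools or single clones is not given in the sources used here. 2-HG(+) cells were exposed for 24 h to 300 μM of 2-HG, which the methods give as the membrane-permeant octyl ester of the R form. 2-HG(-) cells received DMSO for 24 h according to the sample labels but are described as cultured without 2-HG in the methods. The question addressed was how mutant IDH2, which makes 2-HG from α-ketoglutarate, and 2-HG itself alter gene expression. The labels do not say that the libraries of a group came from separate cultures, so p-values measure the spread between these libraries only.

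Cytochromes P450 are haem enzymes that insert oxygen into lipophilic compounds, and the epoxides, alcohols and aldehydes that result are passed on to epoxide hydrolases, aldehyde dehydrogenases and aldehyde oxidases. Glutathione S-transferases conjugate reactive electrophiles to glutathione. Several of these genes, Cyp1a1 and Cyp1b1 among them, are classical targets of the aryl hydrocarbon receptor AHR, which binds DNA with its partner ARNT, while the factor NRF2, encoded by Nfe2l2, drives many conjugating enzymes under oxidative stress. Liver and airway epithelium are the tissues best known for these enzymes, and fibroblasts are known among the P450s mainly for Cyp1b1.

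Library depth was 6472439 to 7313602 reads in the table of 2MUT and Control, and 14959318 to 18363768 reads in the table of 2-HG. The limit of detection was set at 3 reads, which are worth 0.41 to 0.464 RPM in the first table and 0.163 to 0.201 RPM in the other. Of 8 fibroblast markers, 7 were above the limit in all 4 groups, with S100a4 at the limit in one table and not listed in the other. Their summed level was 14079 to 15949 RPM in Control, 12594 to 12960 RPM in 2MUT, 21520 to 23158 RPM in 2-HG(-) and 15201 to 16241 RPM in 2-HG(+). The single markers did not move alike. In every 2MUT library 6 of the 7 were below every Control library, with Col3a1 at 132 to 156 RPM in Control and 24.6 to 31.9 RPM in 2MUT, Thy1 at 77.4 to 82.1 RPM and 18.9 to 28.0 RPM, and Vim at 2885 to 3498 RPM and 1215 to 1343 RPM, while Fn1 was higher, at 3426 to 4329 RPM and 4863 to 5914 RPM. After 2-HG 4 collagen and receptor genes, Col1a1, Col1a2, Col3a1 and Pdgfrb, were lower in every library and Thy1 was higher. The 4 markers of airway club cells, the epithelial cells in which Cyp2f2 is best known, were at the limit in every library. Of 6 general epithelial markers all were at the limit in Control and 2MUT, and in the 2-HG table Cdh1 alone was above it, at 0.381, 0.468 and 0.60 RPM in 2-HG(-) and 0.132, 0.241 and 0.065 RPM in 2-HG(+), where every library was lower. The epithelial list summed to 0 RPM in Control, at most 0.878 RPM in 2MUT, 0.468 to 0.66 RPM in 2-HG(-) and 0.13 to 0.301 RPM in 2-HG(+). Of 6 hepatocyte markers Alb was at the limit throughout, but Afp measured 27.8 to 31.8 RPM in Control and 19.3 to 21.7 RPM in 2MUT, and Apoa1 had no read in Control and 1.55 to 3.95 RPM in 2MUT. The summed level of this list was 27.8 to 31.9 RPM in Control, 21.5 to 25.6 RPM in 2MUT and at most 0.90 RPM in the 2-HG table. Of 5 leukocyte markers, 4 of them listed in the table of 2MUT, Ptprc was at the limit throughout. Lyz2 was higher in every 2MUT library, at 0.148 to 0.82 RPM in Control and 2.47 to 2.75 RPM in 2MUT, as was Csf1r, at 0 to 0.57 RPM and 0.688 to 1.70 RPM. Cd68 measured 6.84 to 12.4 RPM in Control, 6.33 to 6.88 RPM in 2MUT, 11.0 to 13.4 RPM in 2-HG(-) and 7.67 to 9.61 RPM in 2-HG(+). The leukocyte list summed to 8.26 to 12.6 RPM in Control, 9.77 to 11.0 RPM in 2MUT, 12.2 to 14.7 RPM in 2-HG(-) and 8.86 to 11.0 RPM in 2-HG(+). Of 4 adipocyte markers Adipoq and Plin1 were at the limit throughout, and the list, nearly all of it Fabp4, summed to 55.4 to 61.7 RPM in Control, 43.6 to 53.4 RPM in 2MUT, 5.55 to 8.82 RPM in 2-HG(-) and 2.51 to 3.25 RPM in 2-HG(+). Of 4 endothelial markers Kdr and Tek were at the limit throughout, Cdh5 had no read in Control and 0.55 to 0.927 RPM in 2MUT, and the list summed to at most 2.94 RPM in any library. The part of these markers in the results was not tested. In these bulk libraries fewer cells expressing a gene and less RNA per cell cannot be told apart. Each value comes from one amplified target per gene, so levels were compared between groups and not between genes.

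The sequences before the start sites are shown first for the genes on which the account turns, the P450s classically tied to AHR, Aox1, which had opposite changes in the 2 experiments, and Cyp2f2, which had the log2 fold change of largest size among the genes fitted in both experiments. They are the 250 bases before the RefSeq start on GRCm38.p6, written 5′ to 3′ on the strand of the gene. Capitals mark the letters GCGTG, the core of the AHR and ARNT site, on either strand, so that CACGC is a match on the opposite strand. The stretches lie at chr9:57697363-57697612 on the forward strand for Cyp1a1, chr17:79715062-79715311 on the reverse strand for Cyp1b1, chr1:58029719-58029968 on the forward strand for Aox1, and chr7:27119705-27119954 on the forward strand for Cyp2f2.
Cyp1a1: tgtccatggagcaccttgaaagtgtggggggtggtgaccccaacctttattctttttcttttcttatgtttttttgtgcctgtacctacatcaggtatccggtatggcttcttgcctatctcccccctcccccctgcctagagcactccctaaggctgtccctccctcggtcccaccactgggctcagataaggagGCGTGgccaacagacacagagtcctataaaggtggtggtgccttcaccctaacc
Cyp1b1: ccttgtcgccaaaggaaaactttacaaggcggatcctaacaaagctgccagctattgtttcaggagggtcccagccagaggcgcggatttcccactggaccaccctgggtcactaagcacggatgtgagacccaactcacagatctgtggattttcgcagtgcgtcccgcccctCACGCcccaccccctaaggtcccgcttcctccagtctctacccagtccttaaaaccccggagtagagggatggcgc
Aox1: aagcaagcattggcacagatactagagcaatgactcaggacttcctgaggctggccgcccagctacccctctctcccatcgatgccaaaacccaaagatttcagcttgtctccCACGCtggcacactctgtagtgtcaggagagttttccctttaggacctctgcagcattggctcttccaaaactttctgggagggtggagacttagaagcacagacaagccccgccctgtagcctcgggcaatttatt
Cyp2f2: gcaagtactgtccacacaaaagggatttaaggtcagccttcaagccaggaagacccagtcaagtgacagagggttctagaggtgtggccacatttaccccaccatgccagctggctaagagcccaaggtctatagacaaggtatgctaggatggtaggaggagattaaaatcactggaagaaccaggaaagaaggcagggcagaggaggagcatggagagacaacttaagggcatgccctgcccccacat
The match lay 54 to 50 bases before the start in Cyp1a1, 76 to 72 bases in Cyp1b1 and 137 to 133 bases in Aox1, the last of these on the opposite strand, as in Cyp1b1. Of the 7 enzymes with a promoter sequence, 3 held GCGTG on either strand, against 28.2% of all 32851 promoters of the same length. The letters TGACNNNGC, the core of the NRF2 site, were searched on both strands in the same way and were found in 0 of the 7, against 10.2% of all promoters. These are matches of letters only.

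Among the P450s, Cyp2f2 was far lower in both 2MUT and 2-HG(+) cells, Cyp1b1 and Cyp7b1 differed little, and Cyp1a1 was barely detected. Cyp2f2, which encodes a P450 that oxidizes naphthalene and other small aromatic compounds in the airway, lies at chr7:27119909-27133660 on GRCm38. It measured 12.3, 23.8 and 15.0 RPM in the Control libraries and 0.773, 1.17 and 0.413 RPM in the 2MUT libraries. Every 2MUT library was below every Control library, and the third 2MUT library, with 3 reads, was at the limit of detection. Summed over libraries, 360 reads in Control stood against 16 in 2MUT, a level 21.9-fold lower, with a 95% counting interval of 13.3 to 38.8. The log2 fold change on log2(RPM + 1), the scale of all log2 fold changes below unless stated, was -3.31 ± 0.27 (SE, 3 against 3 libraries). This scale understates the change of low genes, and edgeR on the recovered reads gave -4.42.

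After 2-HG, Cyp2f2 measured 7.79, 3.88 and 6.42 RPM in the 2-HG(-) libraries and 0.397, 0.241 and 0.588 RPM in the 2-HG(+) libraries. The groups were again separate, and the 2-HG(+) libraries, with 19 reads in all, were above the limit. The level was 15.3-fold lower, with a counting interval of 9.61 to 25.7, and the log2 fold change was -2.28 ± 0.22, or -3.87 with edgeR. An antisense gene, Gm15883, overlaps Cyp2f2 on the other strand and measured at most 0.275 RPM in any library of the first table.

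Cyp1b1, a P450 of steroid oestrogens and polycyclic hydrocarbons that is typical of mesenchymal cells, lies on the reverse strand at chr17:79701537-79715061. Its level was 392, 433 and 361 RPM in Control and 447, 474 and 424 RPM in 2MUT. The groups overlapped, since the third 2MUT library was below the second Control library, and the log2 fold change was 0.18 ± 0.096. In the other table it was 583, 466 and 539 RPM in 2-HG(-) and 442, 416 and 420 RPM in 2-HG(+). These groups did not overlap, their closest libraries being at 466 and 442 RPM, and a log2 fold change of -0.31 ± 0.10 was found.

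Cyp7b1, the oxysterol hydroxylase of the alternative route to bile acids, lies on the reverse strand at chr3:18071950-18243338. It measured 5.62, 11.3 and 13.0 RPM in Control and 12.2, 6.74 and 5.64 RPM in 2MUT. The libraries of both groups ran over the same range, and the log2 fold change was -0.25 ± 0.31. It measured 60.9, 64.6 and 66.6 RPM in 2-HG(-) and 45.3, 56.7 and 46.3 RPM in 2-HG(+). All 2-HG(+) libraries were lower, with a log2 fold change of -0.37 ± 0.11.

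Cyp1a1, the hydrocarbon hydroxylase that is the best known AHR target, lies on the forward strand at chr9:57687928-57703824. It had 6, 2 and 0 reads in the Control libraries and none in any 2MUT library, so that 2 Control libraries and all 2MUT libraries were at the limit. It had no read in any of the 6 libraries of the 2-HG table, where 3 reads would have been 0.163 to 0.201 RPM. A change of Cyp1a1 was therefore not measurable after 2-HG, and the first Control library held 6 of the 8 reads seen. The neighbouring gene Cyp1a2 was at 0 in all 12 libraries.

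**Figure D1:**
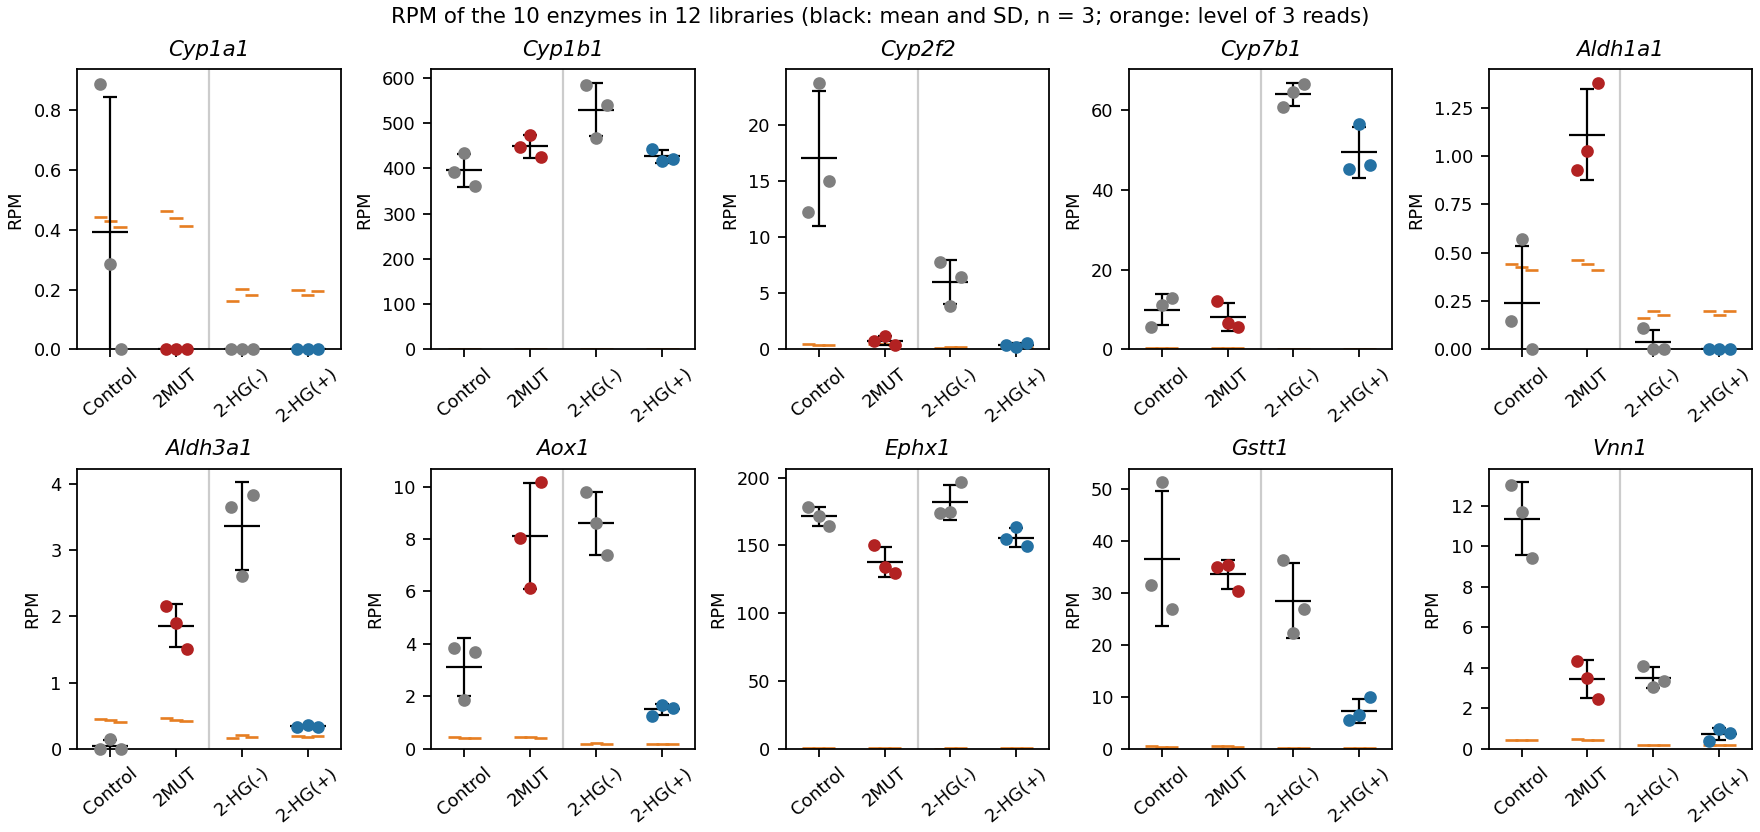
RPM of each enzyme gene (vertical axis, linear from 0, scaled per gene) in the 12 libraries, as 1 point per library in the groups Control, 2MUT, 2-HG(-) and 2-HG(+), with black marks for mean and SD of 3 libraries and orange dashes for the level of 3 reads in each library. Cyp2f2 and Vnn1 are lower in 2MUT and in 2-HG(+), Aox1 and Aldh3a1 are higher in 2MUT and lower in 2-HG(+), and Cyp1a1 is above the level of 3 reads in 1 Control library only, at 0.888 RPM.

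Of the enzymes of aldehyde oxidation, Aldh3a1, Aldh1a1 and Aox1 were each higher in every 2MUT library than in any Control library, whereas Aldh3a1 and Aox1 were lower in every 2-HG(+) library than in any 2-HG(-) library. Aox1, a molybdenum enzyme that oxidizes aldehydes and nitrogen heterocycles, lies on the forward strand at chr1:58029931-58106413. It measured 3.85, 1.85 and 3.69 RPM in Control and 8.03, 6.15 and 10.2 RPM in 2MUT. The lowest 2MUT library was above the highest Control library, with a log2 fold change of 1.16 ± 0.26. It measured 9.80, 8.62 and 7.39 RPM in 2-HG(-) and 1.26, 1.68 and 1.57 RPM in 2-HG(+). The level was 5.73-fold lower after 2-HG, with a counting interval of 4.45 to 7.47 and a log2 fold change of -1.94 ± 0.15. The difference between these changes was 3.10 ± 0.30 (SE), which covers the spread within each experiment only. The levels of the comparison groups also differed, at 1.85 to 3.85 RPM in Control and 7.39 to 9.80 RPM in 2-HG(-). Mutant IDH2 against 2-HG cannot be told apart here from other differences between the 2 experiments.

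Aldh3a1, a dehydrogenase of aromatic and medium-chain aldehydes, lies on the forward strand at chr11:61207537-61218421. Among the Control libraries a single read was found, in the second, and the level was 0.142 RPM there. The 2MUT libraries had 14, 13 and 11 reads, or 2.16, 1.90 and 1.51 RPM. The ratio of the summed reads was 39.0, with a wide counting interval of 6.58 to 1579, since it rests on 1 Control read, and without the first or the third Control library it was 26.5 or 25.5. The mean over both groups was below 1 RPM, so that Aldh3a1 was not fitted in this table. In the 2-HG table it measured 3.65, 2.61 and 3.84 RPM in 2-HG(-) and 0.331, 0.361 and 0.327 RPM in 2-HG(+). All 6 libraries were above the limit, and the 2-HG(+) level was 10.0-fold lower, with a counting interval of 5.99 to 17.9 and a log2 fold change of -1.69 ± 0.16, or -3.27 with edgeR.

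Aldh1a1, the retinaldehyde dehydrogenase, lies on the forward strand at chr19:20492715-20643465. It had 1, 4 and 0 reads in Control and 6, 7 and 10 reads in 2MUT, or 0.927, 1.03 and 1.38 RPM. The 2MUT libraries were above the limit and 2 of the Control libraries were not. The ratio was 4.72, with a counting interval of 1.75 to 15.9, and it was 15.7 without the second Control library and 3.08 without the third. After 2-HG or DMSO, 2 reads were found in 1 of the 6 libraries, so that all were at the limit. The near-identical relative Aldh1a7 had at most 0.273 RPM in any library, and how the counting divided reads between such relatives is not known.

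Of the genes of epoxide hydrolysis and conjugation, Ephx1 was slightly lower in both experiments, and Gstt1 was lower in 2-HG(+) cells but had overlapping groups in the 2MUT comparison. Ephx1, the microsomal hydrolase that turns epoxides made by P450s into diols, lies on the reverse strand at chr1:180976210-181020904. It measured 178, 172 and 164 RPM in Control and 150, 134 and 129 RPM in 2MUT. The groups were separate, with a log2 fold change of -0.32 ± 0.099. It measured 174, 175 and 197 RPM in 2-HG(-) and 154, 163 and 149 RPM in 2-HG(+). Here too the groups were separate, with a log2 fold change of -0.22 ± 0.094.

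Gstt1, a theta-class glutathione S-transferase that acts on small halogenated compounds and epoxides, lies on the reverse strand at chr10:75783813-75798584. It measured 31.5, 51.4 and 26.9 RPM in Control and 35.1, 35.4 and 30.4 RPM in 2MUT. The 2MUT libraries lay within the Control range, and the log2 fold change was -0.07 ± 0.21, or 0.20 without the second Control library. It measured 36.4, 22.3 and 27.0 RPM in 2-HG(-) and 5.49, 6.55 and 9.93 RPM in 2-HG(+). Every 2-HG(+) library was below every 2-HG(-) library, 3.97-fold lower with a counting interval of 3.53 to 4.48, and the log2 fold change was -1.83 ± 0.22. The difference between the changes of the 2 experiments was 1.77 ± 0.30 (SE), with the limits given for Aox1.

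Vnn1, the pantetheinase that releases cysteamine and pantothenate, was lower in both experiments. It lies on the forward strand at chr10:23894688-23905343. It measured 13.0, 11.7 and 9.43 RPM in Control and 4.33, 3.51 and 2.48 RPM in 2MUT. The groups were far apart, with a level 3.33-fold lower, a counting interval of 2.54 to 4.41 and a log2 fold change of -1.49 ± 0.22, or -1.73 with edgeR. It measured 4.08, 3.08 and 3.36 RPM in 2-HG(-) and 0.397, 0.962 and 0.784 RPM in 2-HG(+). The level was 4.90-fold lower after 2-HG, with a counting interval of 3.38 to 7.30 and a log2 fold change of -1.40 ± 0.18, or -2.27 with edgeR. The difference between the changes on log2(RPM + 1) was -0.09 ± 0.28 (SE), a scale that understates the change of the lower levels in the 2-HG table. The limits given for Aox1 hold here too.

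**Figure D2:**
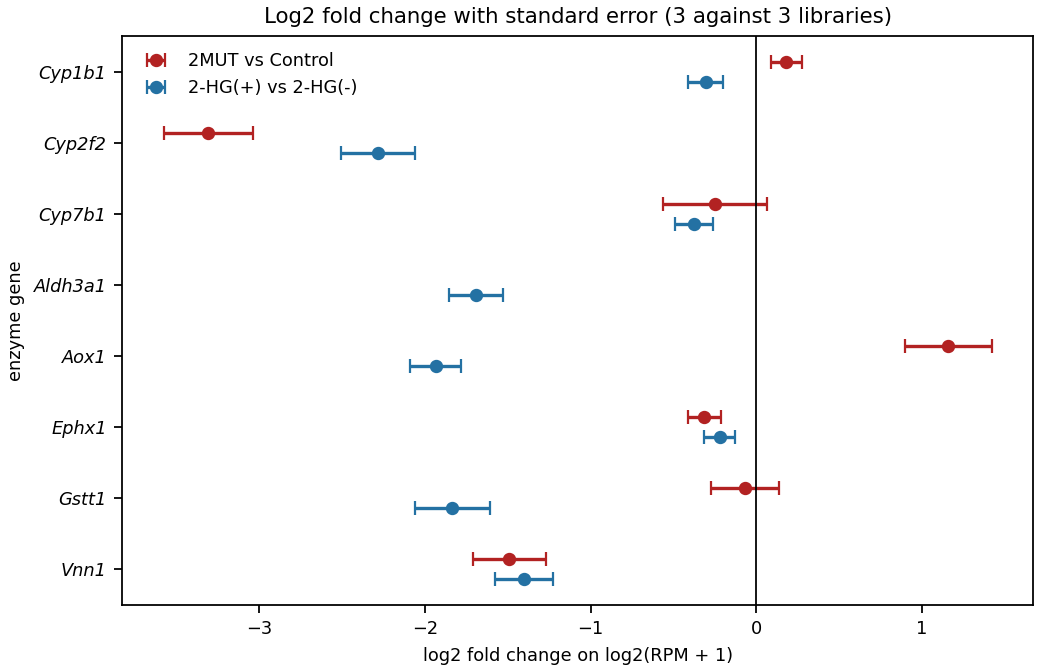
Log2 fold change on log2(RPM + 1) of the enzyme genes fitted (horizontal axis), with bars for the standard error from 3 against 3 libraries, for 2MUT vs Control in red and 2-HG(+) vs 2-HG(-) in blue. Cyp2f2 lies at -3.31 and -2.28 and Vnn1 at -1.49 and -1.40, Aox1 lies at 1.16 and -1.94 on opposite sides of 0, and Gstt1 lies at -0.07 and -1.83.

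Counted over the 10 enzymes, 3 were higher in every 2MUT library than in any Control library, 3 were lower and 4 overlapped. Of the 7 tested, 1 was higher and 3 were lower in this way, and among all 11065 genes tested, groups that did not overlap were seen in 23.5% in the higher and 24.0% in the lower direction. In the limma fit over all genes, at a Benjamini-Hochberg adjusted p under 0.05, 1 of the 7 enzymes tested was called higher, Aox1, and 3 were called lower, Cyp2f2, Ephx1 and Vnn1. Of all genes tested, 16.5% were called higher and 17.3% lower. The call of Ephx1 was lost with the unmoderated test and without the first or the second Control library or the second or the third 2MUT library, and its log2 fold change ranged from -0.38 to -0.27 when single libraries were left out.

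In the 2-HG comparison 8 of the 10 enzymes were lower in every 2-HG(+) library and the other 2 were at the limit. Of all 10384 genes tested, 24.1% had separate groups in the lower and 22.2% in the higher direction. limma called 7 of the 8 enzymes tested lower, all but Ephx1, and 0 higher, with 8 lower and 0 higher at an unadjusted p under 0.05, and edgeR and DESeq2 also called 0 higher. Of all genes tested, 16.7% were called lower and 16.1% higher. In either direction, 4486 of the 10384 had an unadjusted limma p under 0.05. The Cyp1b1 call was lost in 11 of 14 alternative fits, those with edgeR, DESeq2 and median-of-ratios scaling among them, and when any library other than the second 2-HG(-) library was left out. Its log2 fold change ranged from -0.40 to -0.23 when single libraries were left out. The Cyp7b1 call was lost in 7 of 14, and when any library other than the second 2-HG(+) library was left out, and the corresponding log2 fold changes, the exception included, lay between -0.47 and -0.32. Because these enzymes were chosen for such changes, nothing is read from the counts.

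The levels of the enzymes over all 12 libraries, centred within each table, were set against those of 6728 genes measured in both tables. Cyp2f2 was most alike to Pcdh18 (Pearson r = 0.985) and St3gal4 (r = 0.983). Vnn1 was most alike to Aldh6a1 (r = 0.986), a dehydrogenase of valine breakdown, and to Cnn3 (r = 0.980). Gstt1 was most alike to Fyco1 (r = 0.977), Aox1 to Uaca (r = 0.975), Cyp1b1 to Mmp11 (r = 0.925) and Cyp7b1 to S100a10 (r = 0.836). These correlations are descriptions over 12 libraries that share their group means and were picked as the highest.

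The other genes of these pathways, 376 names in 8 lists and 14 enzyme families, were then examined without the 10 enzymes. In the 2MUT comparison 157 were tested, of which 33 rose and 33 fell, 21.0% each, against 16.5% and 17.3% of all genes tested. The median log2 fold change was 0.02, against 0.01 over all genes tested. With a library left out 20 to 29 rose and 25 to 31 fell. In the 2-HG comparison 147 were tested, of which 20 rose (13.6%) and 41 fell (27.9%), against 16.1% and 16.7% of all genes. The median was -0.07, against -0.02 over all genes. The lists were chosen with earlier results of these data known. Nothing is therefore read from these counts or from those below, beside which the same shares of all genes stand. Of the 141 tested in both, 7 fell in both comparisons, 3 rose in both, 12 rose in 2MUT and fell after 2-HG, and 5 fell in 2MUT and rose after 2-HG. Aldh6a1, Cbr2, Cyp39a1, Cyp4v3, Fmo1 and Xdh were among the 7 that fell in both. All calls below are from limma with adjustment over all genes tested.

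**Figure D3:**
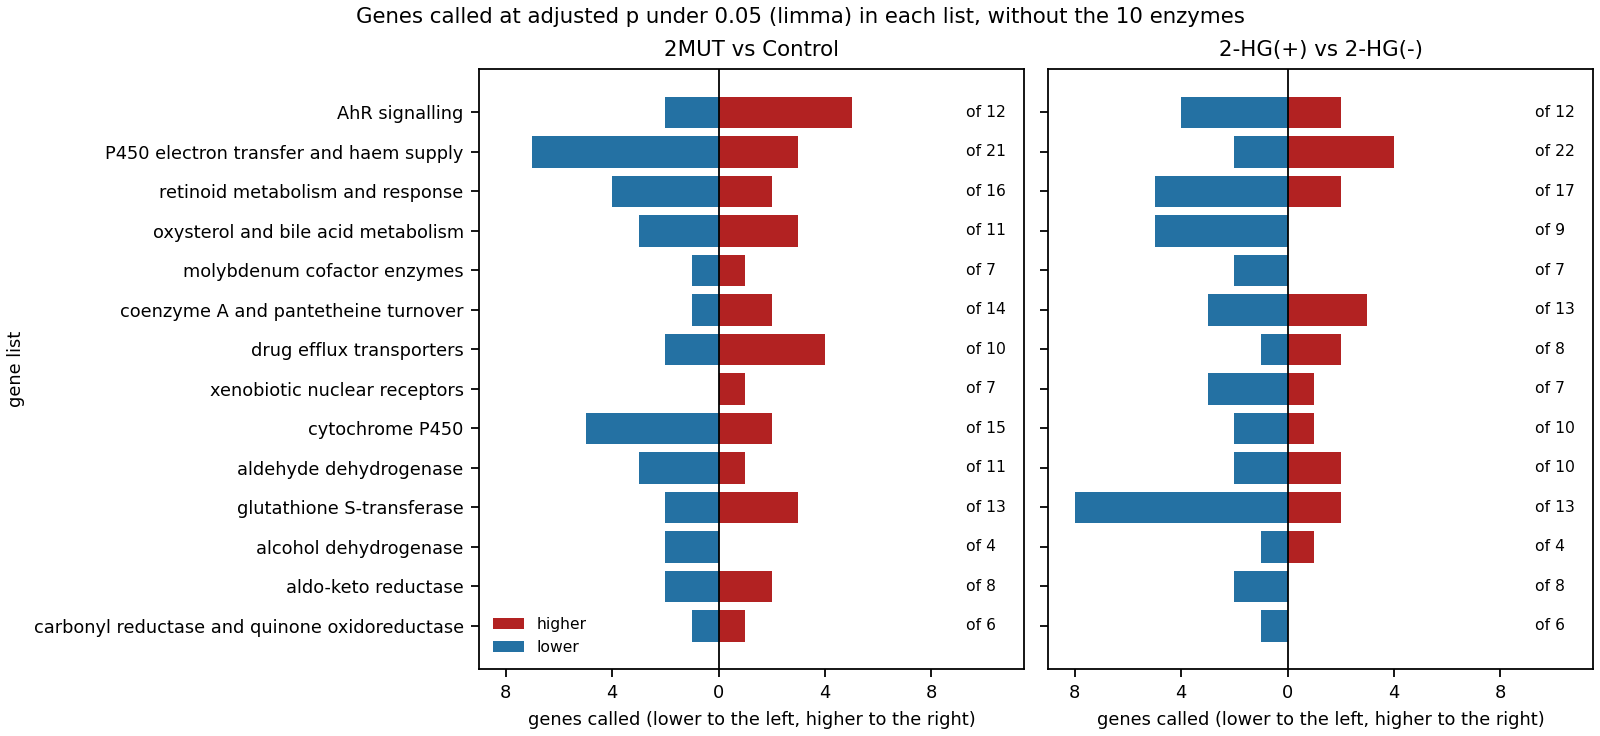
Number of genes called higher (red, to the right) or lower (blue, to the left) at an adjusted p under 0.05 by limma in each list of related genes with at least 4 tested in both comparisons, without the 10 enzymes, for 2MUT vs Control on the left and 2-HG(+) vs 2-HG(-) on the right, with the number tested at the right edge. The glutathione S-transferases show 3 higher and 2 lower of 13 in 2MUT, and 2 higher and 8 lower of 13 after 2-HG.

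Of 91 further P450s listed for the 2MUT comparison, 42 had no read in any library, and of 89 listed for the 2-HG comparison, 38 had none, while 15 and 10 were tested. In 2MUT cells 2 rose and 5 fell, with a median of -0.14. The 5 became 3 without the first or the third 2MUT library, and the 2 became 1 without either of these or without the third Control library. Cyp39a1, an oxysterol 7-hydroxylase, fell from 92.9, 74.6 and 86.1 RPM to 29.7, 31.0 and 30.7 RPM, with a log2 fold change of -1.44 ± 0.12 (adjusted p = 1.1e-05). Cyp51, the sterol demethylase of cholesterol synthesis, fell with -0.93 ± 0.14 (adjusted p = 0.00049). After 2-HG 1 rose and 2 fell, with a median of -0.17. Cyp39a1 fell with -0.77 ± 0.12 (adjusted p = 0.0011), and Cyp4v3, a fatty acid hydroxylase, with -0.94 ± 0.14 (adjusted p = 0.00087). Cyp20a1, a P450 without an assigned substrate, rose with 0.58 ± 0.094 (adjusted p = 0.0015).

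Of the AHR list 12 genes were tested in each comparison. In 2MUT cells 5 rose and 2 fell, with a median of 0.23, and the number that rose was 3 without the first or the third 2MUT library. Ahr itself measured 29.7, 21.4 and 35.0 RPM in Control and 24.4, 34.1 and 28.5 RPM in 2MUT, with a log2 fold change of 0.03 ± 0.19 (adjusted p = 0.92), and Arnt had 0.09 ± 0.089 (adjusted p = 0.44). Nqo1, a quinone reductase that responds to AHR and to NRF2, rose from 8.88, 10.7 and 13.1 RPM to 36.8, 36.5 and 33.9 RPM, with 1.64 ± 0.16 (adjusted p = 3.6e-05). Nfe2l2 rose with 1.09 ± 0.17 (adjusted p = 0.00074). Tiparp, an AHR target that represses AHR, had 0.63 ± 0.28 (adjusted p = 0.10), and passed the threshold only without the second 2MUT library, at 0.97. Ahrr, the AHR repressor, had at most 0.137 RPM in any library.

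After 2-HG, 2 genes of the AHR list rose and 4 fell, with a median of 0.05, so that the median and the balance of calls differed in sign. Ahr fell from 110, 110 and 122 RPM to 68.8, 76.8 and 82.0 RPM, with -0.58 ± 0.10 (adjusted p = 0.0024). Arnt fell with -0.46 ± 0.13 (adjusted p = 0.022), a call that was lost without the first or the third 2-HG(-) library or the first 2-HG(+) library, with log2 fold changes of -0.46, -0.35 and -0.37. Nqo1 had 0.10 ± 0.12 (adjusted p = 0.58) and Tiparp 0.43 ± 0.24 (adjusted p = 0.20). The largest rise of the list was that of Slc7a5, an amino acid transporter, from 128, 104 and 103 RPM to 507, 583 and 579 RPM, with 2.31 ± 0.11 (adjusted p = 1.6e-06).

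The list of P450 electron transfer and haem supply also holds the haem breakdown genes Hmox1, Hmox2, Blvra and Blvrb. It gave 3 higher and 7 lower of 21 in 2MUT cells, and 4 higher and 2 lower of 22 after 2-HG. The medians were -0.26 and 0.05. Of the calls in 2MUT, Hmox1 was among the higher, and Blvrb and Hmox2 (-0.47 ± 0.15, adjusted p = 0.033) were among the lower. The 7 became 4 without the third 2MUT library, and the 4 became 2 without the third 2-HG(-) library or the second or the third 2-HG(+) library. The 2 became 1 without the first or the third 2-HG(-) library. Por, the reductase on which microsomal P450s depend, had -0.26 ± 0.16 (adjusted p = 0.25) in 2MUT and -0.16 ± 0.17 (adjusted p = 0.51) after 2-HG. Hmox1, which breaks haem down, rose in 2MUT with 0.93 ± 0.15 (adjusted p = 0.00069). Blvrb, which encodes biliverdin reductase B, fell there with -0.92 ± 0.13 (adjusted p = 0.00026). Blvra, which encodes biliverdin reductase A, had -0.14 ± 0.15 (adjusted p = 0.49) there. After 2-HG, Cyb5r1 rose with 1.52 ± 0.18 (adjusted p = 0.00025) and Cpox, an enzyme of haem synthesis, with 1.43 ± 0.19 (adjusted p = 0.00043).

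The glutathione S-transferases other than Gstt1 had a median log2 fold change of 0.21 in 2MUT and of -0.68 after 2-HG. In 2MUT cells 3 of 13 rose, Gstm2, Gstm7 and Gstt4, and 2 fell, Gsta4 and Gsto1. Without the first 2MUT library 1 rose and 1 fell, and without the second 1 rose. The rise of Gstm2, 0.25 ± 0.090 (adjusted p = 0.050), was not called by edgeR, and was lost without the first, second or the third 2MUT library or the second or the third Control library, at 0.21 to 0.29. Gstm7 rose from 5.47, 8.97 and 7.79 RPM to 19.9, 19.3 and 11.8 RPM, with 1.09 ± 0.24 (adjusted p = 0.0046). Gsta4, which acts on 4-hydroxynonenal, fell with -0.72 ± 0.12 (adjusted p = 0.0012). Gstt4, a neighbour of Gstt1, rose with 1.69 ± 0.26 (adjusted p = 0.00058), from a single read in Control to 2.78, 2.63 and 1.79 RPM. It passed the filter only through its 2MUT libraries, so its adjusted p and its place in the count are not read as support. Gstt2 and Gstt3 were at 0 in the libraries of this table, and how reads were divided between Gstt1 and Gstt4 is likewise not known.

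After 2-HG, 8 of 13 glutathione S-transferases fell and 2 rose. The 8 comprised 5 of the 6 mu-class genes tested, Gstm1, Gstm2, Gstm3, Gstm6 and Gstm7, and all 3 microsomal genes, Mgst1, Mgst2 and Mgst3. Gstm1 fell from 841, 658 and 746 RPM to 243, 286 and 291 RPM, with -1.45 ± 0.12 (adjusted p = 2.8e-05), and Gstm7 fell with -1.17 ± 0.16 (adjusted p = 0.00047). The 5 that fell among the mu-class genes are close copies of one another, and how the counting divided their reads is not known. Gsto1, an omega-class enzyme, rose with 0.51 ± 0.12 (adjusted p = 0.0094) and Gstcd with 0.70 ± 0.17 (adjusted p = 0.012).

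**Figure D4:**
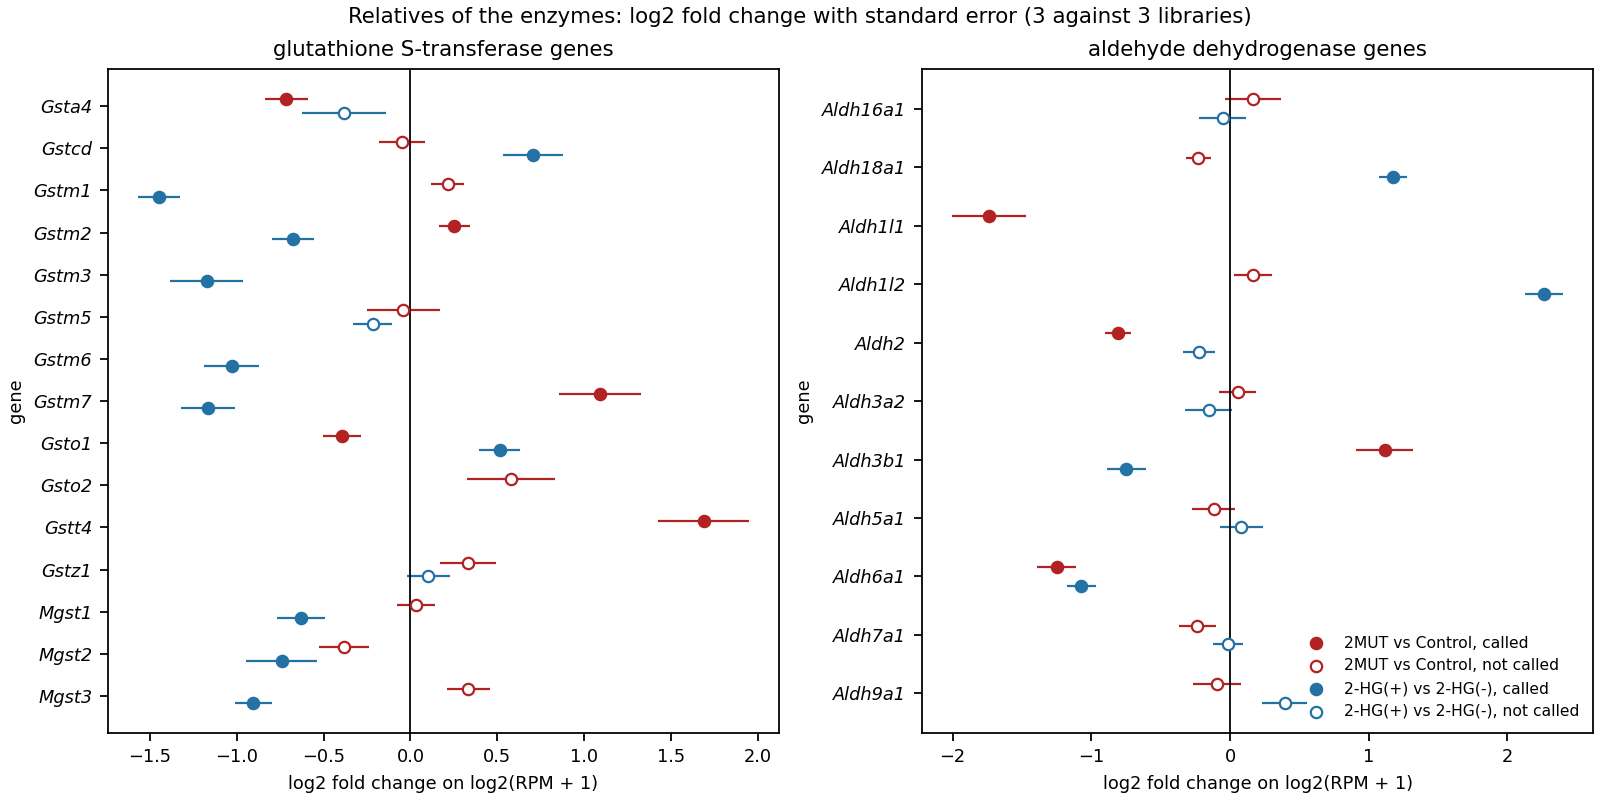
Log2 fold change on log2(RPM + 1) with its standard error, from 3 against 3 libraries, of the glutathione S-transferase genes on the left and the aldehyde dehydrogenase genes on the right that were tested, without the 10 enzymes, for 2MUT vs Control in red and 2-HG(+) vs 2-HG(-) in blue, with filled points for genes called at an adjusted p under 0.05. Gstm1 lies at -1.45 after 2-HG, Gstm7 at 1.09 and -1.17, Aldh3b1 at 1.12 and -0.75, and Aldh6a1 at -1.25 and -1.07.

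Among the other aldehyde dehydrogenases 1 rose and 3 fell of 11 in 2MUT, and 2 rose and 2 fell of 10 after 2-HG, with medians of -0.12 and -0.03. Aldh3b1, a membrane enzyme for fatty aldehydes, rose in 2MUT from 18.5, 36.3 and 31.4 RPM to 58.2, 65.2 and 60.3 RPM, with 1.12 ± 0.21 (adjusted p = 0.0018). It fell after 2-HG from 84.8, 73.0 and 85.1 RPM to 38.9, 55.9 and 49.7 RPM, with -0.75 ± 0.14 (adjusted p = 0.0032). Aldh2, the mitochondrial acetaldehyde dehydrogenase, fell in 2MUT with -0.81 ± 0.093 (adjusted p = 8.7e-05) and had -0.22 after 2-HG, which did not pass the test. Aldh6a1 fell in both, with -1.25 ± 0.14 (adjusted p = 8.5e-05) and -1.07 ± 0.11 (adjusted p = 7.9e-05). Aldh1l2, the mitochondrial formyltetrahydrofolate dehydrogenase, rose after 2-HG from 49.2, 43.5 and 45.9 RPM to 185, 231 and 268 RPM, with 2.26 ± 0.14 (adjusted p = 4.4e-06). Aldh3a2, which neighbours Aldh3a1, had 0.05 ± 0.13 (adjusted p = 0.78) and -0.15 ± 0.17 (adjusted p = 0.52).

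Of the relatives of Aox1, Aox4 rose in 2MUT from 9.32, 7.55 and 7.66 RPM to 14.2, 16.3 and 16.9 RPM, with 0.87 ± 0.17 (adjusted p = 0.0025). After 2-HG, Aox4 had -0.27 ± 0.21 (adjusted p = 0.35). Aox3 had -0.31 ± 0.23 (adjusted p = 0.32) in 2MUT, and Aox2 was at the limit in that table. How the counting divided reads between Aox1 and these relatives is not known. Xdh, the xanthine oxidoreductase that uses the same molybdenum cofactor, fell in both comparisons, with -0.72 ± 0.13 (adjusted p = 0.0014) and -0.71 ± 0.093 (adjusted p = 0.00044). After 2-HG, Mocs1, which begins synthesis of the cofactor, fell with -0.79 ± 0.17 (adjusted p = 0.0072).

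The list around Vnn1, of coenzyme A and pantetheine turnover, gave 2 higher and 1 lower of 14 in 2MUT, and 3 higher and 3 lower of 13 after 2-HG, with medians of 0.05 in each. The 2 became 1 without the first Control library or the first or the second 2MUT library, and after 2-HG the 3 that rose became 1 without the second 2-HG(+) library. Btd, the biotinidase related to the vanins, rose in 2MUT with 0.67 ± 0.15 (adjusted p = 0.0065) and fell after 2-HG with -1.24 ± 0.18 (adjusted p = 0.00073). Pank4, of the pantothenate kinase family, fell in 2MUT with -0.63 ± 0.12 (adjusted p = 0.0019). Vnn3, beside Vnn1, had -0.17 ± 0.36 (adjusted p = 0.75) in 2MUT and at most 0.218 RPM in the 2-HG table.

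In the list around Cyp7b1, of oxysterols and bile acids, 3 rose and 3 fell of 11 in 2MUT, with a median of 0.16, and the number that rose was 1 without the first Control library or the second or the third 2MUT library. After 2-HG 5 of 9 fell, with a median of -0.54, and the 5 became 3 without the first or the third 2-HG(-) library or the second 2-HG(+) library. Ch25h, the cholesterol hydroxylase that makes a substrate of CYP7B1, fell from 38.9, 44.5 and 42.9 RPM to 13.6, 16.5 and 17.7 RPM, with -1.36 ± 0.13 (adjusted p = 7.1e-05). Abca1, the cholesterol exporter, rose in 2MUT with 0.54 ± 0.12 (adjusted p = 0.0050) and fell after 2-HG with -0.96 ± 0.14 (adjusted p = 0.00081). Cyp7a1, the first enzyme of the classical route to bile acids, had at most 0.138 RPM in any library.

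Beyond the direct relatives, Adh1, an alcohol dehydrogenase that also oxidizes retinol, fell after 2-HG from 10.3, 8.49 and 11.9 RPM to 0.198, 0.481 and 0.392 RPM, with -3.04 ± 0.17 (adjusted p = 2.6e-06). In 2MUT it had -0.13 ± 0.21 (adjusted p = 0.65). Fmo1, a flavin monooxygenase of nitrogen and sulfur compounds, fell in both comparisons, with -1.74 ± 0.16 (adjusted p = 1.6e-05) and -1.32 ± 0.13 (adjusted p = 9.7e-05). Fmo5, the other of this family that was tested, rose in 2MUT with 1.77 ± 0.23 (adjusted p = 0.00017), from 26 to 135 reads. It was called lower after 2-HG. Cbr2, a carbonyl reductase, fell in both comparisons, with -0.66 ± 0.13 (adjusted p = 0.0032) and -1.74 ± 0.091 (adjusted p = 2.1e-06). In the retinoid list 2 rose and 4 fell of 16 in 2MUT, and 2 rose and 5 fell of 17 after 2-HG, with medians of -0.04 in each, and the 2 that rose after 2-HG became 1 without the first or the third 2-HG(-) library. Among the transporters 4 rose and 2 fell of 10 in 2MUT, and 2 rose and 1 fell of 8 after 2-HG, with medians of 0.22 and 0.13. The 2 that fell in 2MUT, Abcb1b with -0.55 ± 0.18 (adjusted p = 0.032) and Abcg2 with -0.41 ± 0.14 (adjusted p = 0.039), became 0 or 1 with any one library left out. Abcc4, an exporter of conjugates, rose in both, with 1.21 ± 0.18 (adjusted p = 0.00053) and 1.07 ± 0.11 (adjusted p = 9.4e-05), and Slco2a1, a prostaglandin transporter, rose in 2MUT with 1.66 ± 0.10 (adjusted p = 1.4e-06). The UDP-glucuronosyltransferases and sulfotransferases, the other main conjugating families, did not reach a mean of 1 RPM for any gene examined in either table.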

How the data were processed

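RNA-seq values of 12 libraries, 3 in each of the groups Control, 2MUT, 2-HG(-) and 2-HG(+), were assigned to groups from their labels, and 0 table columns had no sample. The authors prepared Ion AmpliSeq libraries, in which one target per transcript is amplified, counted the reads per gene and deposited the values as RPM, reads per 1000000 reads on genes, in one table per experiment. Each value was a whole multiple of the worth of 1 read within 0.05 reads in 100% of entries, and reads were recovered from it. Amplified reads carry no molecular identifiers, so the 95% counting intervals of read ratios (exact, conditional on the sum, scipy 1.17.1) and the limit of 3 reads cover counting error only.

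The filter kept genes averaging 1 RPM or more over the 6 libraries of a comparison, which were fitted on log2(RPM + 1) with limma 3.58.1 in R 4.3.3 (mean-variance trend) and called at a Benjamini-Hochberg adjusted p under 0.05 over all genes tested. The design was written for RPM. The difference between the log2 fold changes of a gene in the 2 experiments has the SE from both fits and was not tested. That SE covers the spread of libraries within each experiment only. The experiments also differ in vector, selection, exposure and depth, which cannot be told apart from the effects compared. The alternatives were an added value of 0.1 RPM, no filter, a filter at 10 RPM, median-of-ratios scaling, an unmoderated test, edgeR 4.0.16 and DESeq2 1.42.0 on recovered reads, a replicate block and omission of each library.

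The members and gene lists were chosen with earlier results of these data known. Pathway genes named are, per list or family and comparison, from the 2 largest rises and the 2 largest falls among called genes that had separate groups and a higher group of 10 RPM or more, and Ahr, Arnt, Ahrr, Tiparp, Nqo1 and Por in any case. Named besides, after their values were seen, were close relatives of the enzymes and the genes called in both comparisons. The same holds for the genes counted within the glutathione S-transferases and for the haem breakdown genes. Gene positions are from GENCODE M21 on GRCm38 and promoter sequences from RefSeq on GRCm38.p6. Some genes covered by these rules are left out of the text. The scripts were tested on simulated data. Tables were handled with pandas 2.3.3 and plots drawn with matplotlib 3.10.9.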

Additional observations from a re-analysis of the deposited data

Results flagged for a closer look

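Values in opposite directions in the 2 experiments, with all 3 libraries of a group on one side of the other group in each, were found for 2 of the enzymes and for 32 further pathway genes. Of these 32, the 17 covered by the rule for named genes or named as close relatives are given here. Among genes tested in both experiments such opposite, separate groups were seen in 27 of 141 pathway genes (19.1%) and in 1487 of all 9610 genes (15.5%). These differences in direction were not tested. Aldh3a1 had a mean of 1.86 RPM in 2MUT against 0.0473 RPM in Control and a log2 fold change of -1.69 after 2-HG. For Aox1 the log2 fold change was 1.16 in 2MUT and -1.94 after 2-HG.

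Positive in 2MUT and negative after 2-HG were the log2 fold changes, in that order, of Abca1 (0.54 and -0.96), Aldh3b1 (1.12 and -0.75), Btd (0.67 and -1.24), Csad (0.39 and -1.10), Cyb5r3 (0.62 and -0.55), Cyb5a (0.27 and -0.69) and Gstm2 (0.25 and -0.68). The same order of directions was seen for Gstm7 (1.09 and -1.17), Rdh10 (0.84 and -0.65), Rdh5 (1.29 and -0.79), Vdr (0.52 and -0.68) and Rxra (0.11 and -0.36). The 2MUT values of Cyb5a and Rxra did not pass the limma test. Gstt4 had a log2 fold change of 1.69 in 2MUT, and in the 2-HG table, where it was not fitted, its mean was 0.323 RPM in 2-HG(+), below every 2-HG(-) library.

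Negative in 2MUT and positive after 2-HG were those of Abcb1b (-0.55 and 0.31), Adh5 (-0.62 and 0.40), Aldh18a1 (-0.23 and 1.17) and Gsto1 (-0.39 and 0.51). The 2MUT value of Aldh18a1 and the 2-HG value of Abcb1b did not pass the test.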

How the results depend on the processing

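No log2 fold change of a called enzyme, close relative or gene under the rule for named genes changed sign under any alternative. Of 1305 values of pathway genes under alternatives 96 were no longer past the threshold and 1 newly was. Pathway genes higher in 2MUT numbered 33, 14 with the unmoderated test and 20 to 29 with a library left out, 20 without the second or the third 2MUT library. Those lower in 2MUT numbered 25 to 31 with a library left out, and after 2-HG 15 to 20 were higher and 34 to 43 lower. Enzymes called higher in 2MUT numbered 3 without a filter, 0 at 10 RPM, which left Aox1 untested, and 0 with the unmoderated test. With a library left out they numbered 1 to 2, and 2 without any one Control library. The second was then Aldh3a1, with means of 0.0473 RPM in Control and 1.86 RPM in 2MUT. It passed the filter only through its 2MUT libraries, so nothing is read from that call. Enzymes called lower numbered 1 in 2MUT and 3 after 2-HG at 10 RPM, a filter that left fewer of them to test. Same-numbered libraries had correlations of deviations of 0.0708, 0.0293 and 0.0319 in the 2MUT table and of -0.457, -0.158 and 0.0572 in the 2-HG table. The numbers thus gave no sign of pairing. Libraries of different number had -0.138 to 0.0888 in the 2MUT table and -0.414 to 0.48 in the 2-HG table. Whether libraries of the 2-HG groups share a batch under other numbers was not tested. With a replicate block, 31 pathway genes were higher and 34 lower in 2MUT, and 15 were higher and 39 lower after 2-HG. Cyp1a1 and Aldh1a1 were at the limit in every library of the 2-HG table, so that a change could not be measured there. Absence of the RNA and a target that amplifies poorly cannot be told apart in such values.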
